A study of Mus musculus with 6 samples.

Results

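Clustered H3K9me3 regions on mouse chromosomes 1, 2 and 3 are described here, in thymocytes with and without the corepressor KAP1. They were chosen by their positions in the wild-type list of enriched regions: neighbours on these chromosomes at most 100 kb apart were chained, and chains of 3 or more regions were kept. This gave 26 chains with 226 of the 3748 wild-type regions, and 42 of the 605 knockout regions overlapped the span of a chain by at least 1 base. The series holds 6 samples, and the 2 used are H3K9me3 chromatin immunoprecipitations followed by sequencing, 1 from wild-type thymocytes and 1 from thymocytes with a T cell-specific Kap1 knockout, both labelled as T cell progenitors on a mixed C57BL/6 / sv129sv background. The labels do not say which Cre line made the knockout, at what age thymocytes were taken or whether animals were pooled. The marker genes of the cells could not be checked in lists of regions.

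H3K9me3, trimethylation of lysine 9 of histone H3, is a mark of heterochromatin. In many places it is laid down by SETDB1, a methyltransferase that KAP1 (also called TRIM28) recruits once a KRAB zinc finger protein has brought KAP1 to its DNA sequence. Other methyltransferases, the SUV39H enzymes among them, lay down the same mark without KAP1, above all in pericentromeric repeats. KRAB zinc finger genes themselves lie in large clusters that often carry the mark, and so do many retrotransposons.

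Each list gives only the position of its regions on the mm9 build, with no read count or score, so read depth is unknown and there is no replicate error. With 1 library per genotype no difference between genotypes could be tested; the Wilson 95% intervals beside shares reflect counting error alone and take neighbouring regions as independent, which they are not. A list entry says that a region was called, and a missing entry leaves the state of the mark there unknown. Chains are named by chromosome and a letter in order of position. Within kept chains the largest gap was 90568 bp (chr2C), and the smallest gap between a kept chain and the next region was 134006 bp (chr3F). On these chromosomes 7 chains held just 3 regions, and 25 pairs of neighbours fell short of that number. Genes and sequences under the regions were not analysed here.

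In the knockout library, 54 of the 226 clustered wild-type regions were touched by a knockout region, or 23.9% (Wilson 18.8 to 29.9%). Over all wild-type regions in the series, isolated ones included, it was 17.5%. Chained regions of the whole series, these included, are split below into recurring and other regions. Of these, 23.5% (68 of 289) and 23.4% (474 of 2022) were touched, so the 23.9% was close to the share over all chained regions. A wild-type region is called touched, or partnered, where at least 1 of its bases lies in a knockout region. The share was 79.4% on chromosome 1 (27 of 34, Wilson 63.2 to 89.7%), 16.4% on chromosome 2 (11 of 67, 9.42 to 27.1%) and 12.8% on chromosome 3 (16 of 125, 8.0 to 19.8%). On chromosome 1, 24 of the 27 touched regions lay in chr1B, chr1C and chr1D. The intervals take such neighbours as independent, so they do not test a difference between chromosomes. Clustered regions of the other autosomes had a partner in 340 of 1801 cases, or 18.9% (17.1 to 20.8%). None of those 16 chromosomes taken alone passed 33.3%, the share on chromosome 18 (4 of 12). Chained regions that are not on autosomes were left out of this comparison. A high share is therefore not shown to be particular to chromosome 1. Outside chains, 20 of 310 wild-type regions on chromosomes 1 to 3 were touched, or 6.45% (4.22 to 9.75%). On chromosome 1 the contrast between chained and other regions was 27 of 34 against 5 of 138, while on chromosome 2 it was 11 of 67 against 7 of 86. Chromosome 3 had 16 of 125 chained regions touched (12.8%) and 8 of 86 others (9.30%, Wilson 4.79 to 17.3%), with overlapping intervals.

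By chain, 13 of the 26 held a touched region, or 50.0% (Wilson 32.1 to 67.9%), against 50.7% of all chains of the series. All chains include these 26 and chains that are not on autosomes. On the other autosomes 73 of 166 chains held a touched region, or 44.0% (36.6 to 51.6%). The share of the 26 was thus near that of all chains, and its interval overlaps that of the other autosomes. The other 13 of the 26 chains held no knockout region at all. Those 13 held 81 wild-type regions over 166 kb, with a median of 4 regions per chain, against 10 in the chains with a partner. On chromosome 1, 4 of 6 chains had a partner, on chromosome 2, 3 of 10, and on chromosome 3, 6 of 10. In 3 chains, all on chromosome 1, every wild-type region was touched.

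Covered length differed less than region number. Touched regions were wider than untouched ones, and 9 of the 42 knockout regions touched 2 or more wild-type regions. Wild-type regions of the chains covered 1215 kb (mean width 5.38 kb, 226 regions) and knockout regions within the spans covered 741 kb (mean width 17.6 kb, 42 regions), a ratio of 0.61. The spans were drawn from the wild-type list alone. Knockout length outside them, from 28 of the 70 knockout regions on these chromosomes, is therefore not counted in these ratios. On chromosome 1 the knockout list covered 588 kb, against 598 kb in wild type, a ratio of 0.98. On chromosome 2 it covered 37.9 kb, against 159 kb in wild type, a ratio of 0.24. On chromosome 3 the knockout list covered 115 kb, against 457 kb in wild type, a ratio of 0.25. In chains of the other autosomes the ratio was 0.38, from 7500 kb of wild-type and 2817 kb of knockout regions; the highest there was 0.69, on chromosome 8. Of the wild-type bases on chromosome 1, 95.8% lay in a region of both lists, against 22.5% on chromosome 2 and 22.6% on chromosome 3.

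**Figure D1:**
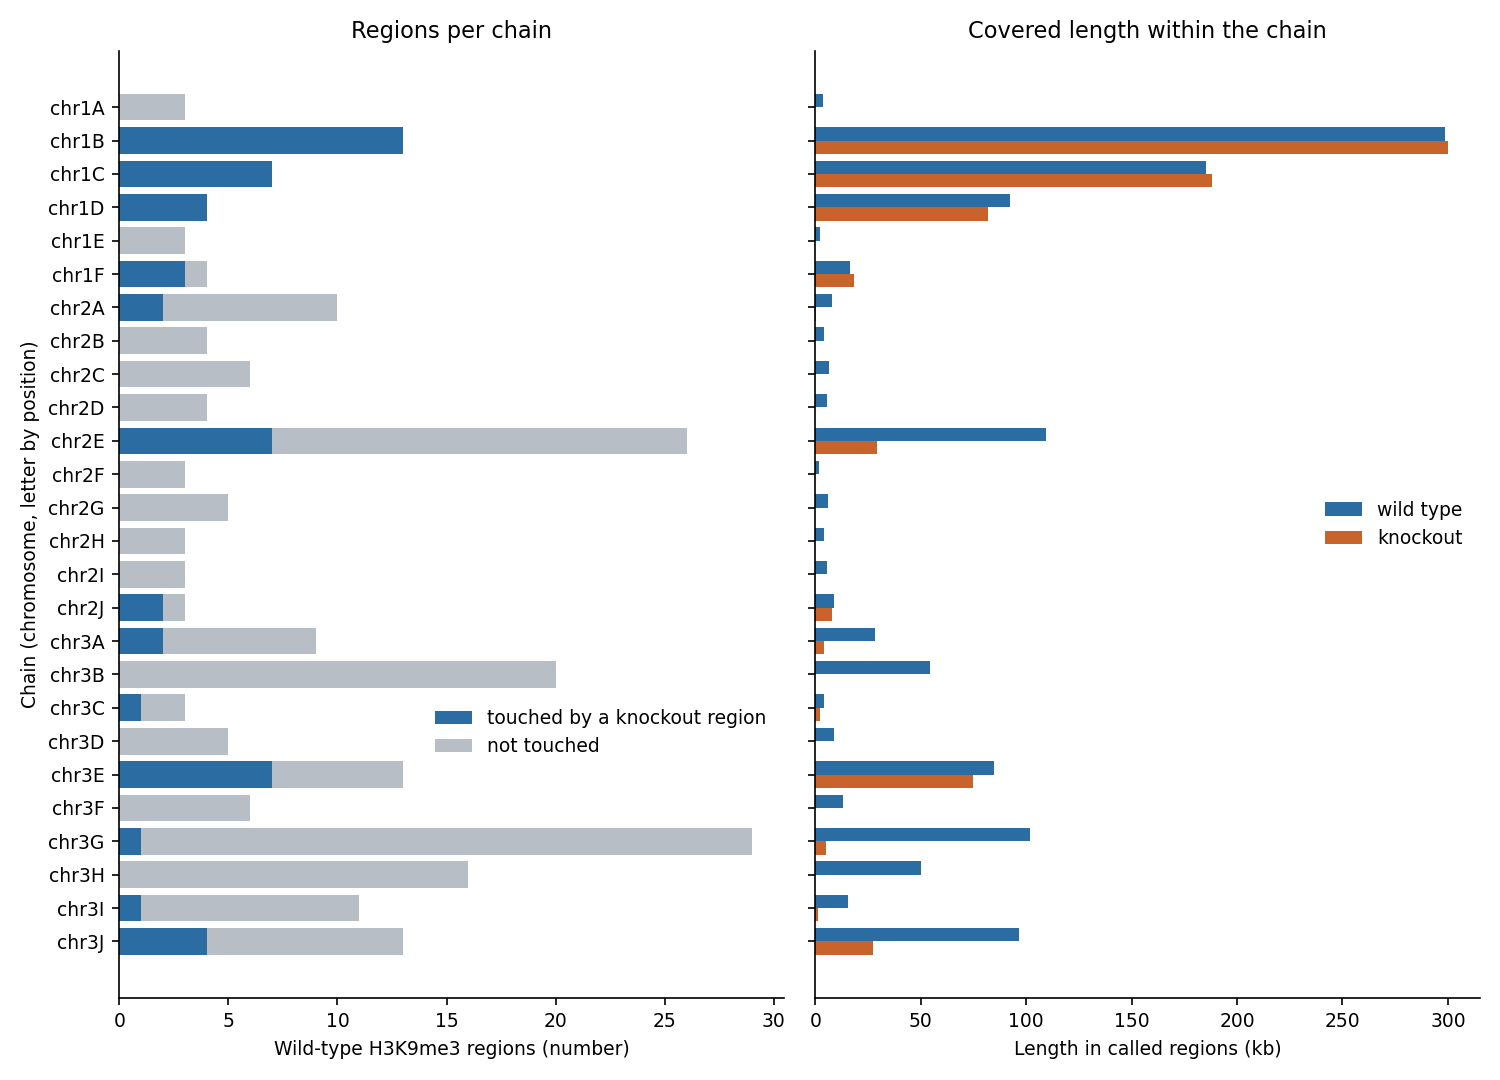
Each line is a chain. Left, the number of wild-type regions, split by whether a knockout region touches them; right, the length in called regions within the chain in kb, for wild type and knockout. Chains chr1B, chr1C and chr1D reach 300 kb, 188 kb and 81.7 kb in the knockout, and most other chains have little or no knockout length.

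All 42 knockout regions within the spans touched a wild-type region, and none reached beyond the span. Over the whole series 91.4% of knockout regions touched a wild-type region, and in the chain spans of the other autosomes 287 of 294 did. Of the 70 knockout regions on chromosomes 1 to 3, 60.0% lay in a chain span (20 of 27 on chromosome 1, 10 of 19 on chromosome 2 and 12 of 24 on chromosome 3). Among the 28 outside, 20 touched a wild-type region.

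On chromosome 1 nearly all of the knockout length within chain spans lay in 3 chains of very wide regions. Together chr1B, chr1C and chr1D held 24 wild-type regions over 576 kb and 19 knockout regions over 570 kb, which was 76.9% of the knockout length of all 26 chains. Picked out after their values were seen, these chains set the total. In the other 23 chains the partnered share was 14.9% (30 of 202, Wilson 10.6 to 20.4%), and the ratio of covered lengths was 0.27.

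Chain chr1B, from 84950057 to 85343722, held 13 wild-type regions over 298.5 kb, which was 75.8% of its span. All 13 had a partner, and 11 knockout regions covered 300.1 kb. Wild-type widths ran from 3378 to 65532 bp, with a median of 20815 bp. Its widest region, from 85063871 to 85129402, is also the widest touched region of the chains; the knockout region there, from 85064126 to 85128332, began 255 bp later and ended 1070 bp earlier. The 38305 bp region from 85175530 to 85213834 differed even less, by 12 bp at its start and 9 bp at its end. In 2 places a knockout region ran across the gap between a pair of wild-type regions, as from 85228034 to 85295448. The edges of this chain thus nearly coincided in both lists, apart from those joined stretches and a knockout start 1205 bp upstream of the wild-type start at 84971615.

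Chain chr1C, from 87343632 to 87559668, held 7 wild-type regions of 677 to 59176 bp, all with a partner. The knockout list held 4 regions there, since a 36818 bp region spanned 3 wild-type regions and a 100820 bp region, from 87458508 to 87559327, spanned 2. Wild-type regions covered 185.4 kb of it and knockout regions 188.0 kb. The 677 bp region at 87375470 lay inside the 36818 bp knockout region, and it was the only touched region under 1 kb on chromosome 1. Chain chr1D, from 90108364 to 90207367, held 4 regions that paired 1 to 1. Here the knockout regions were all narrower: 52142 against 58348 bp, 1987 against 3873 bp, 12853 against 13472 bp and 14716 against 16483 bp. They covered 81.7 kb, against 92.2 kb for the wild-type regions.

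The other 3 chains of chromosome 1 were small. In chr1F, from 172993855 to 173015583, a knockout region of 18318 bp covered 3 wild-type regions of 4218 to 6054 bp, and the 681 bp region before them had no partner. Chains chr1A, from 46579920 to 46698059, and chr1E, from 95728581 to 95811756, held 3 narrow regions each and no knockout region. The widest untouched region in the chains of chromosome 1, at 46695904 in chr1A, measured only 2156 bp.

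**Figure D2:**
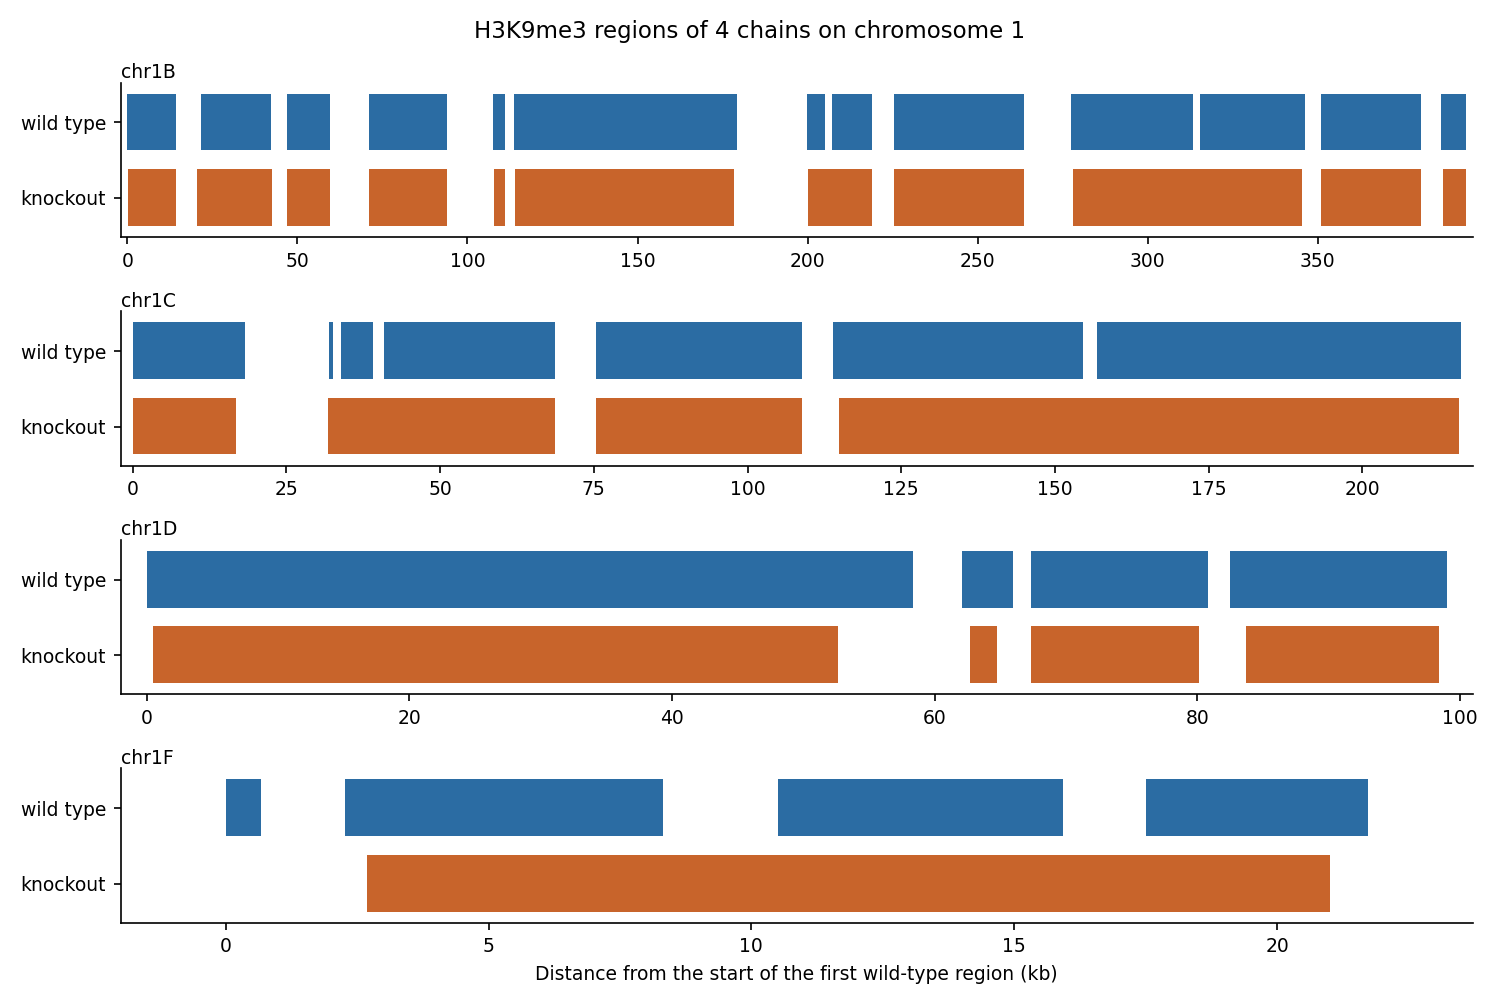
Positions of the wild-type (upper row) and knockout regions (lower row) in 4 chains on chromosome 1, as distance in kb from the start of the first wild-type region of the chain. Edges nearly coincide in chr1B, knockout regions run across gaps in chr1C and chr1F, and all 4 knockout regions are narrower than their partners in chr1D.

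Knockout regions ran across short gaps and stopped at longer ones. Of the 200 gaps between neighbours in the chains, 32 had a touched region on both sides. In 12 of these a knockout region spanned the gap, and these gaps measured 1312 to 2792 bp with a median of 1957 bp. In the other 20 different knockout regions lay on each side, across gaps of 1383 to 20621 bp with a median of 6009.5 bp. The ranges overlap, and every spanned gap was under 3 kb. The caller's rule for joining nearby signal is not given in the sources used here, and its part in this was not tested. Of the 12 spanned gaps, 7 lay on chromosome 1.

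Where a wild-type and a knockout region paired 1 to 1, widths were close on chromosome 1 and further apart elsewhere. There were 33 such pairs, of which 27 had a narrower and 6 a wider knockout region. The median ratio of knockout to wild-type width was 0.985 on chromosome 1 (15 pairs, 0.513 to 1.06), 0.582 on chromosome 2 (9 pairs, 0.156 to 1.02) and 0.826 on chromosome 3 (9 pairs, 0.110 to 3.31). Both edges lay within 500 bp of each other in 8 of the 15 pairs on chromosome 1, in 3 of 9 on chromosome 2 and in 2 of 9 on chromosome 3. The only pair far above 1 was in chr3I, where a 1088 bp knockout region lay over the start of a 329 bp wild-type region at 105963244.

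Touched regions were wider than untouched ones on each chromosome. Median widths were 16483 bp with and 722 bp without a partner on chromosome 1, 3026 and 1124.5 bp on chromosome 2, and 7746.5 and 1894 bp on chromosome 3. Chance contact grows with width, and the width difference was not tested. Below 1 kb, 3 of 54 clustered regions were touched, or 5.56% (Wilson 1.91 to 15.1%). From 1 to 5 kb it was 13 of 115, or 11.3% (6.73 to 18.4%), from 5 to 10 kb 10 of 21, or 47.6% (28.3 to 67.6%), and at 10 kb or more 28 of 36, or 77.8% (61.9 to 88.3%). In chains of the other autosomes 102 of 149 regions of at least 10 kb were touched, or 68.5% (60.6 to 75.4%). Among such wide regions all 18 on chromosome 1 and all 3 on chromosome 2 had a partner, against 7 of 15 on chromosome 3 (46.7%, Wilson 24.8 to 69.9%). The 8 wide untouched regions were all on chromosome 3: 4 in chr3J, 2 in chr3G and 2 in chr3H.

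**Figure D3:**
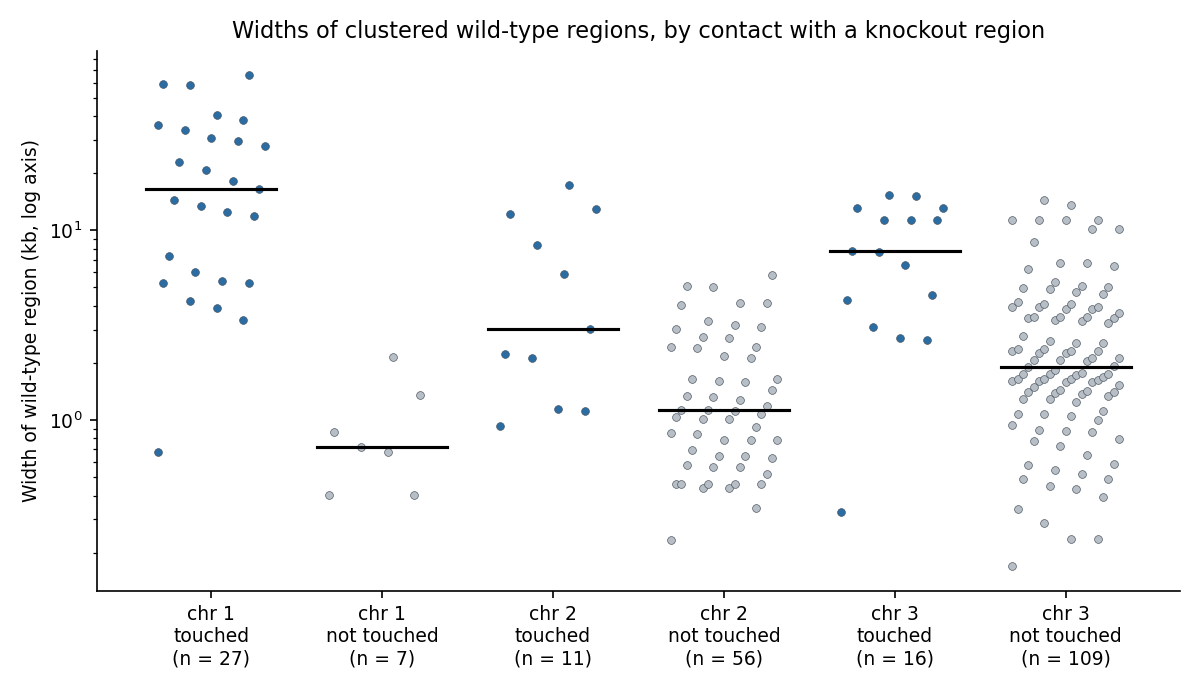
Widths of the 226 clustered wild-type regions in kb on a log axis, by chromosome and by whether a knockout region touches them; points are regions and lines are medians. On each chromosome the touched regions have the higher median, and the widest untouched regions, up to 14.5 kb, are on chromosome 3.

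Chromosome 2 had its knockout regions in 3 of 10 chains. Chain chr2E, from 150910596 to 151322214, held most regions, 26, over 109 kb, and 7 of them had a partner (26.9%, Wilson 13.7 to 46.1%), with 29.4 kb in 6 knockout regions. Its widest region, 17325 bp at 151222060, met a knockout region of 6161 bp. Its widest untouched region measured 5832 bp, at 150926465. A pair of wide regions, 12165 bp at 151072883 and 12900 bp at 151146498, held knockout regions of nearly equal width, 7509 and 7510 bp, well inside their edges. At its distal end, knockout regions lay close to the wild-type edges, as at 151308329, where they differed by 177 bp at the start and 277 bp at the end.

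Chain chr2J, from 181651854 to 181748022, had 2 of 3 regions touched, a 2114 bp region over a knockout region of 1942 bp and a 5895 bp region over a knockout region of 6021 bp. The other 7 chains on this chromosome held 3 to 6 regions each and no knockout region. Among them were chr2C, from 100300381 to 100542830, with 6 regions over 6.46 kb, and chr2B, from 90062097 to 90241375. Further along the chromosome lay chr2D, from 150013332 to 150090963, and chr2F, from 161654082 to 161752053. Chains chr2G (174790102 to 174883308), chr2H (176901601 to 176916309) and chr2I (177051966 to 177156861) lie on distal chromosome 2, where many KRAB zinc finger genes are known to lie side by side. Whether these 3 chains lie over such genes was not tested. They held 5, 3 and 3 wild-type regions, none of them touched.

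Chains of chromosome 3 held 125 wild-type regions, more than those of chromosomes 1 and 2 together. Chain chr3G, from 93679966 to 94000641, had most regions of all 26, 29 over 102 kb, and 1 of them was touched (3.45%, Wilson 0.61 to 17.2%). That region, 7822 bp at 93771920, met a knockout region of 5092 bp. The widest untouched region of all chains, 14507 bp at 93740951, also lay in chr3G. Chain chr3B, from 15341565 to 15757376, held 20 regions of 395 to 8695 bp over 54.5 kb and no knockout region. Chain chr3H, from 98249105 to 98516156, held 16 regions over 50.1 kb and no knockout region. In chr3I, from 105945478 to 106103084, 1 of 11 regions was touched.

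Of the chains with fewer than 10 regions on chromosome 3, chr3A began at 3000422, where the assembled sequence of the chromosome begins, next to the centromere, and ended at 3223217. It held 9 regions of 1588 to 4738 bp over 28.3 kb, with 2 touched. The knockout regions there measured 501 and 3362 bp, and the wider of these covered the whole 3077 bp wild-type region at 3147332. Chain chr3C, from 28764218 to 28782469, had 1 of 3 regions touched. Chains chr3D, from 64220160 to 64531292, and chr3F, from 93436963 to 93545959, held 5 and 6 regions and no knockout region.

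Regular spacing was rare. A chain was called regularly spaced where at least 3 successive start-to-start distances differed by a factor of at most 1.1, which 3 of the 19 chains long enough for it met (chr1B, chr3E and chr3G), against 5 of 137 on the other autosomes. In chr1B the distances were 35373 to 37986 bp over 4 regions from 85227579, and in chr3G 6737 to 7072 bp over 4 regions from 93885558. The longest run was in chr3E, with 4 distances of 16656 to 18136 bp over 5 regions from 92022781. Next came chr2E and chr3H, with 2 similar distances each (5433 and 5670 bp; 21633 and 22808 bp).

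Measured from each region to the last but one, spacing was far more even in some chains; this measure was added after the data were seen. In 4 chains (chr2A, chr3D, chr3E and chr3J) at least 3 such successive distances differed by a factor of at most 1.1, of 15 chains long enough, against 15 of 111 on the other autosomes. In chr3J 6 of them measured 32602 to 32612 bp. In chr3E 3 measured 34673 to 34813 bp, and in chr2A all 8 measured 7931 to 8089 bp. In chr3D, with only 5 regions, 3 overlapping distances of 147891 to 159731 bp met the limit. In chr2A and chr3J, then, the unit that repeats is a pair of regions. For chr3E the same reading rests on only 3 overlapping distances, and no region there met the measure of recurring arrangements given below.

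**Figure D4:**
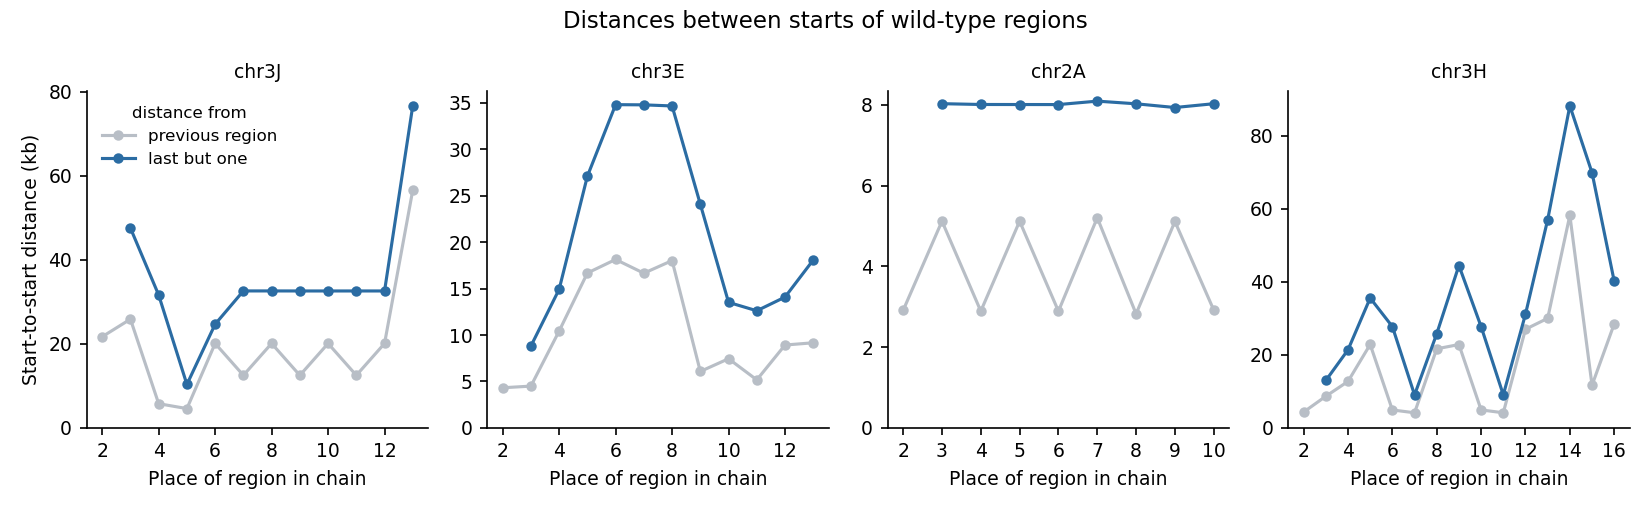
Start-to-start distance in kb of each wild-type region from the previous region (grey) and from the last but one (blue), by place in the chain, for 4 chains. The blue line is flat over all of chr2A (7931 to 8089 bp), over the middle of chr3J (32602 to 32612 bp) and over part of chr3E (34673 to 34813 bp), and no such stretch is seen in chr3H.

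In chr3J, from 112998112 to 113231661, knockout regions fell on every second region of the array. The array holds 8 wild-type regions from 113056042, in steps of 20100 to 20102 and 12502 to 12510 bp by turns, and the first 7 of them measured 11316 to 11377 bp. Regions at 113056042, 113088654, 113121258 and 113153863, 11316 or 11317 bp wide, had no partner. Those at 113076144, 113108756, 113141358 and 113173963, 11377, 11370, 11373 and 6542 bp wide, were each touched. All 4 knockout regions began exactly 1852 bp after the start of their wild-type region. Their widths were 9402, 9395, 6999 and 1701 bp, so their ends varied where their starts did not. Neighbours of near-equal width thus had opposite status along the array, and the copies of each kind had the same status.

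In chr3E, from 92003543 to 92129764, 7 of 13 regions were touched by only 3 knockout regions, of 26509, 28291 and 20055 bp. They covered 74.9 kb, against 84.6 kb for the wild-type regions of the chain. Its array alternates regions of 13141 and 13120 bp with regions of 15378 and 15225 bp, the former at 92022781 and 92057594 and the latter at 92039458 and 92074250. The 15378 bp region is the widest touched region of the chromosome 3 chains. The knockout regions began 2233 bp after the start of both wider regions and ended 732 bp before the end of both narrower ones. Spans that the knockout regions skipped therefore lay at the same place in both of these repeats. The last 5 regions, of 658 to 4163 bp, had no partner.

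Chain chr2A, from 89050639 to 89086063, is a small array of 10 regions in 5 repeats of 7931 to 8089 bp. Each repeat holds a region of 1042 to 1137 bp and then a region of 458 bp, the latter with the same width in all 5 repeats. The knockout list held 2 regions there, both exactly 236 bp wide, in the third and the fifth repeat. Each ended at the very base where its wild-type region ended, at 89067784 and 89083826. Together they covered 0.472 kb, against 7.83 kb for the 10 wild-type regions. All 458 bp regions were untouched.

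**Figure D5:**
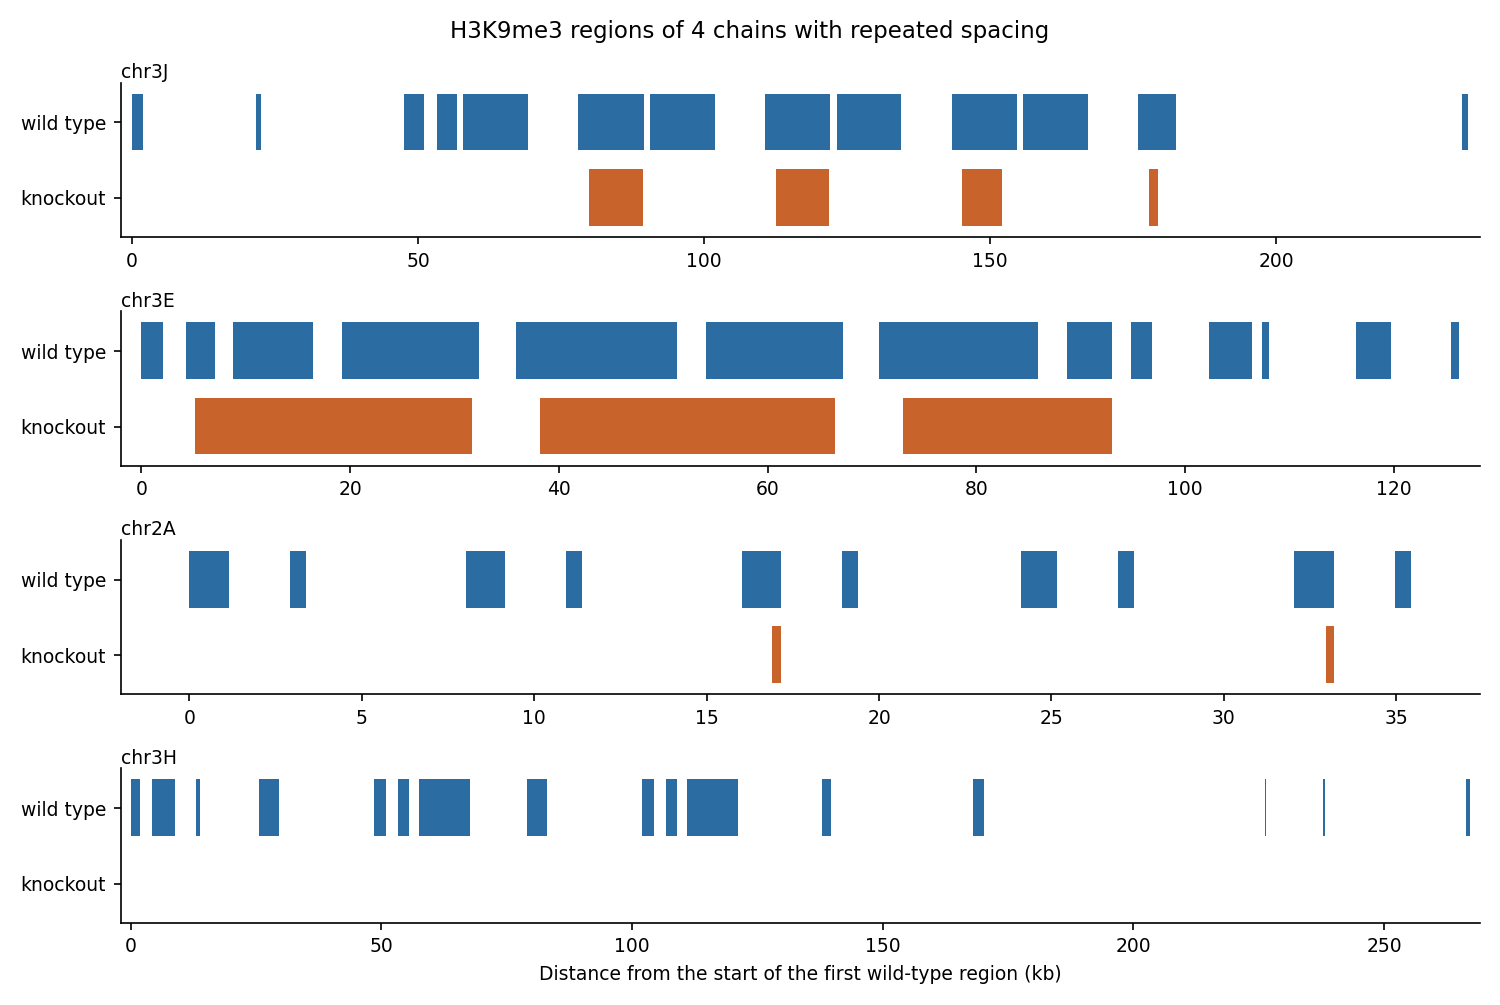
Positions of the wild-type (upper row) and knockout regions (lower row) in 4 chains with repeated spacing, as distance in kb from the start of the first wild-type region. In chr3J every second region of the array is touched, in chr3E 3 knockout regions each span several wild-type regions, in chr2A 2 of 5 repeats hold a 236 bp knockout region, and in chr3H there is none.

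Arrangements of regions also recurred within chains over longer distances. A region was counted as recurring where it and a neighbour matched another such pair of the same chain within 50 bp in both widths and in their distance, a measure added after the data were seen. This held for 38 of 226 clustered regions, or 16.8% (Wilson 12.5 to 22.2%), against 12.5% of all chained regions in the series, in 5 chains: 9 regions in chr2A, 8 each in chr3G and chr3H, 7 in chr3J and 6 in chr2C. In chr2C 3 regions of 1653, 563 and 1012 bp came back with identical widths 166509 or 166510 bp further on. In chr3H 4 regions of 3959, 2378, 2111 and 10148 bp came back at offsets of 53461 to 53477 bp, with widths that differed by at most 4 bp. In chr3G 2 pairs of regions recurred, at offsets of 111330 bp and of 110767 to 110772 bp. Whether these regions share their sequence was not tested.

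Recurring regions had a partner in 5 of 38 cases, or 13.2% (Wilson 5.75 to 27.3%), and the others in 49 of 188, or 26.1% (20.3 to 32.8%). These intervals overlap. No recurring region lay on chromosome 1, and without that chromosome the share among the others was 14.3% (22 of 154, Wilson 9.63 to 20.7%), close to that of recurring regions. In chains of the other autosomes the shares were 18.4% (38 of 206) and 18.9% (302 of 1595). Over all chains of the series, these 26 included, they were 23.5% (68 of 289) and 23.4% (474 of 2022). Among 33 pairs of matching regions, both were touched in 4 and neither in 25, and in 4 only 1 of them was. The 4 pairs of unlike status were all in chr2A, where the 236 bp knockout regions occupied some repeats and not others. In chr2C, chr3G and chr3H no recurring region was touched.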

How the data were processed

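Per the labels' protocols, thymocytes were freshly isolated, formaldehyde-crosslinked and sonicated, a polyclonal Diagenode antibody was used to precipitate H3K9me3, and PCR-amplified libraries of size-selected fragments were sequenced. Alignment used Bowtie and the mm9 build, per the submitters' processing notes. Not given in the sources used here are the Bowtie version, how multiply mapping reads were treated, and which caller with which settings and input made the lists. What the authors deposited are positions only, in base pairs, with no other value per region, 1 list per library. Starts were read as counted from 0 and are printed counted from 1. The KAP1 and input samples were not analysed here, and neither was any sequence or gene position, since the tables at hand are of another build.

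Chains, partners, covered lengths (clipped to the span from the first to the last wild-type region of a chain), spacing and recurring arrangements were computed in Python 3.11.15 with SciPy 1.17.1. All of these but the covered lengths were tested on planted lists. The region files carry no depth, so the intervals rest on the number of regions alone. They give no precision for a comparison of the genotypes. Named are the 3 chains per chromosome with most regions, the 5 with the highest and the 5 with the lowest share touched among chains of at least 10 regions, the 5 with the longest regular run, and the widest touched and untouched region per chromosome; other chains and regions were picked after their values were seen. Members, lists and measures were chosen with earlier results of these data known.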

Additional observations from a re-analysis of the deposited data

How the results depend on the processing

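Of 226 clustered wild-type regions 23.9% had a partner in the knockout. This share was 13.7% with a reciprocal overlap of 50% and 15.7% once neighbours within 10 kb had been joined. In settings added after the data were seen it was 14.1% without chromosome 1, and counting each recurring arrangement once gave 24.6%. It was 62.9% (39 of 62) for the clustered regions that are among the 605 widest of the whole wild-type list, 605 as in the knockout list. The number of chains, 26, was 15 with at least 5 regions required, 16 with regions of at least 1 kb and 16 after joining, all of which remove chains or regions. The share of chains with a partner stayed within its interval under each of the 8 settings run. The ratio of knockout to wild-type length, 0.61, was 0.34 after joining and 0.25 without chromosome 1. Joining both adds the bases between neighbours and leaves fewer chains, and which of these moved the ratio was not tested. Chains chr1C, chr1D, chr1E, chr1F, chr2A, chr2F, chr2H, chr2J, chr3C and chr3E fell below 3 regions on joining. They count in neither the 15.7% nor the 0.34. Among them chr1C and chr1D had ratios of 1.01 and 0.89 before joining, while chr1E, chr2F and chr2H held no knockout region. The number of regularly spaced chains, 3, was 0 after joining, 1 with a tighter limit on the distance ratio and 1 with a run of 4 distances. Among 45 values under changed settings, 33 stayed within their interval or within 1.5 times and 12 moved; where no cause is stated, the cause was not tested. No paired analysis was possible because there is only 1 H3K9me3 library of each genotype. The unknown read depth limits all of these values.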
